A study of Mus musculus with 4 samples.

Results

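Tmem170 encodes a small multi-pass membrane protein, and the genes described here are Tmem170 itself, its paralog Tmem170b and 6 neighbours of Tmem170 on mouse chromosome 8, namely Cfdp1, Bcar1, Chst5, Tmem231, Gabarapl2 and Adat1. The 8 genes were found by symbol in GENCODE M21 among the 34866 identifiers of the count table, and 7 of them passed the filter on low counts; Chst5 did not. Tmem170 was chosen because its level was high in the triple knockdown, so its values are given as a description without a test. The paralog was chosen by family and the neighbours by position, and the question was whether they share the rise of Tmem170.

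The triple knockdown consisted of neural stem and progenitor cells from the dorsal telencephalon of mouse embryos at E11.5, transduced at plating with 3 lentiviral vectors at a multiplicity of infection of 10 each (pCS-EG-shPhf21b, pLV-EG-shZfp7, pLV-EG-shZfp57) and grown as neurospheres for 5 days in medium with bFGF. The shControl group was the same kind of primary culture, labelled WT, given CS-EG-shControl alone at a multiplicity of infection of 30. Each group had 2 libraries, and all 4 carry 1 batch label. The genotype label of the triple knockdown spells its targets Phf21, Sfp7 and Zfp57; the names of the treatment label are used here. The number of vectors and part of the vector backbones differed between the groups and cannot be told apart from the hairpins. The labels do not say whether replicates came from separate cultures or litters, so the p-values reflect the spread among these libraries alone, and that spread may be technical.

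Libraries held 17901386 and 15170491 estimated counts in the triple knockdown, and 20779211 and 14694387 in shControl. Levels are in CPM, the rounded estimated count per 1000000 counts of a library after TMM scaling. The counts of a library were totalled over the genes past the filter on low counts. Of the targeted genes, Phf21b measured 5.49 and 6.45 CPM in the triple knockdown against 7.25 and 7.36 CPM in shControl. Zfp57 measured 10.7 and 9.32 CPM in the triple knockdown against 14.6 and 11.8 CPM in shControl. Zfp7 measured 1.97 and 0.977 CPM in the triple knockdown against 1.67 and 2.25 CPM in shControl. None of the 3 passed edgeR's quasi-likelihood test (adjusted p = 0.644, 0.341 and 0.80 for Phf21b, Zfp57 and Zfp7). All 8 neural progenitor markers (Sox2, Pax6, Nes, Vim, Fabp7, Hes1, Hes5, Slc1a3) were detected, with a summed level of 20600 and 23290 CPM in the triple knockdown and 22960 and 28010 CPM in shControl. The 4 neuron markers summed to 487 and 480 CPM in the triple knockdown and to 625 and 579 CPM in shControl. Of these 4, 1 was past the threshold and lower, as were 0.826% of all tested genes. Myeloid, red blood cell, endothelial and mesenchymal markers summed to at most 26.4 CPM per list in any library. None of their genes was at 0 in every library. Of the 3 tested red blood cell genes, 1 was past the threshold and higher, as were 0.541% of all tested genes. The mitochondrial share of the counts was lower in both triple knockdown libraries (26.6% and 28.5%) than in either shControl library (30.3% and 33.9%). The part of these differences in the results below was not tested.

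In human cells TMEM170A, the product of the Tmem170 ortholog, sits in the membranes of the endoplasmic reticulum (ER) and the nuclear envelope. TMEM170A favours flat ER sheets over tubules and takes part in the assembly of nuclear pores. The tubule-forming reticulon RTN4 acts in the opposite direction. TMEM170B has been studied in human breast cancer cells as an inhibitor of Wnt signalling. The chromosome 8 neighbours belong to other processes, given with each gene.

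Tmem170 (ENSMUSG00000031953.2) lies on the minus strand at chr8:111863038-111876750 in GRCm38 and has 1 annotated transcript. Downstream of it on the same strand, after a gap of 8.75 kb, starts Cfdp1; upstream, the 3′ end of Chst5 is 12.4 kb from the Tmem170 start. The 7 chromosome 8 genes together span 282 kb. To show the sequence at the start of the gene that was higher, beside that of its paralog and of 3 of the 5 genes nearest to it in pattern (described further on), the stretches upstream of the annotated starts are printed 5′ to 3′ in the direction of each gene (RefSeq promoter windows, GRCm38.p6). Of the other two of these 5, Mx2 had no window, and the window of Dbx2 lies inside its GENCODE transcript. Capitals mark matches to GAAA-NN-GAAA (N is any base), the core of the interferon-stimulated response element, to which interferon-activated transcription factors bind.
Tmem170, chr8:111876751-111876925, minus strand: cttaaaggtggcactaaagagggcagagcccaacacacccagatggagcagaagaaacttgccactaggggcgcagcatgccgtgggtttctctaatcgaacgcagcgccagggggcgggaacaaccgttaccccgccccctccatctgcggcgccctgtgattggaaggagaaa
Tmem170b, chr13:41605632-41605881, plus strand: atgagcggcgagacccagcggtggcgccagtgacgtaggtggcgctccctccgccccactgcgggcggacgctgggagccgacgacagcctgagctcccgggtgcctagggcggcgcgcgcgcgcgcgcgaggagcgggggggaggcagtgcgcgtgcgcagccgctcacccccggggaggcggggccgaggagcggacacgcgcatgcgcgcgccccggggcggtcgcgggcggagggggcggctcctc
Bst2, chr8:71537473-71537722, minus strand: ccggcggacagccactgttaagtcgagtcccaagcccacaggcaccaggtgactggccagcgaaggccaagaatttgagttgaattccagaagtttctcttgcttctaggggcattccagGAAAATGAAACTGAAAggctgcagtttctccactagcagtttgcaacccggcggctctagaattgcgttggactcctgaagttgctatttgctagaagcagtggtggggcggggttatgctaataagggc
Isg15, chr4:156200819-156201068, minus strand: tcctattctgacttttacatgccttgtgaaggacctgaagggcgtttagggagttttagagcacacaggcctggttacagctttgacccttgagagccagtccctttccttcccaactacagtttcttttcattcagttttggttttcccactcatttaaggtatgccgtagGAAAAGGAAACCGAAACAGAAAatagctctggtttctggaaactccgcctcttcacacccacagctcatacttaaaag
Neu1, chr17:34931003-34931252, plus strand: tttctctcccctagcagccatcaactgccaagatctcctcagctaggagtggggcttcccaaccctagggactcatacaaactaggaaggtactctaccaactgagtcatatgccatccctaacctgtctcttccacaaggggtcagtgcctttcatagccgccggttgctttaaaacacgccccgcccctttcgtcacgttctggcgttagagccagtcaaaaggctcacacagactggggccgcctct
A pair of motifs was searched on both strands of the whole windows, from 250 bases before to 50 after each RefSeq start. They were GAAA-NN-GAAA and TGCCGC, the core recognised by Zfp57, which was among the targeted factors. The 2 motifs overlap nowhere in these windows. A match shows only that the letters are there, as these libraries measure neither binding nor DNA methylation. Windows were found for 7 of the 8 members (8 windows, since Bcar1 has a pair of starts); Adat1 had none. GAAA-NN-GAAA matched in none of the 8 member windows, and in 3.44% of all 32851 windows. TGCCGC matched in the windows of Tmem170b (3 times) and Gabarapl2 (once, 33 to 38 bases after the start), and in 11.6% of all windows; no match of it lay in the Tmem170 window. The Tmem170 window held 29 CpG dinucleotides and that of Tmem170b 49, against a median of 7 over all windows. The windows of the neighbours lay above this median too, from 14 for Tmem231 to 29 and 30 for Bcar1.

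Tmem170 was far above its control level in both triple knockdown libraries. It had 638 and 491 estimated counts, or 34.0 and 31.99 CPM, in the triple knockdown, against 115 and 85.1 estimated counts, or 5.34 and 6.385 CPM, in shControl. Both triple knockdown libraries were high and both shControl libraries low, with no overlap, and the replicates of each group lay close together. The means were 33.0 ± 1.43 CPM in the triple knockdown and 5.86 ± 0.738 CPM in shControl (SD, n = 2 each), a 5.68-fold difference (95% interval of the fit 4.44 to 7.28; log2 fold change 2.51, SE 0.18). Since Tmem170 was chosen for its rise in these libraries, the interval is a description and no test of the rise. Of the 14050 genes tested, 22 had a more positive log2 fold change, as did 8 of the 12650 whose mean level reached 1 CPM. No exonic base of Tmem170 overlaps another annotated gene, and 1.85% of the 31-base words in its transcript occur in another gene. In bulk libraries, more cells of a type and more RNA per cell cannot be told apart.

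The comparison with Cfdp1 inside each library does not depend on how the libraries are scaled. Of the counts of Tmem170 and Cfdp1 together, Tmem170 took 21.6% (95% Wilson interval 20.1% to 23.1%) and 18.0% (16.6% to 19.4%) in the triple knockdown libraries, against 3.68% (3.08% to 4.40%) and 4.61% (3.74% to 5.66%) in the shControl libraries. Of the counts of all 7 chromosome 8 genes, it took 7.43% (6.89% to 8%) and 6.53% (5.99% to 7.11%) in the triple knockdown, against 1.12% (0.935% to 1.34%) and 1.33% (1.07% to 1.64%) in shControl. These intervals cover counting error only. On either measure both triple knockdown libraries were high and both shControl libraries low, as the choice of Tmem170 implies.

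**Figure D1:**
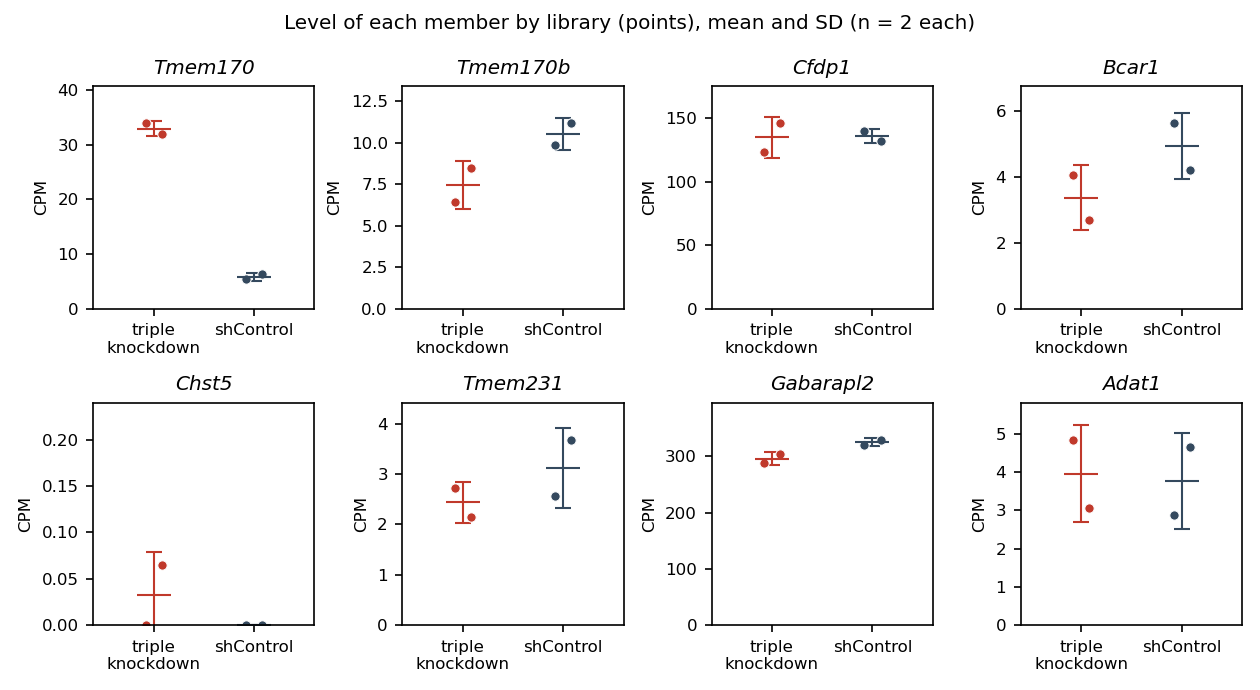
Level of each of the 8 genes in CPM (vertical axes from 0, each with its own scale), with 1 point per library and the mean and SD of the 2 libraries of each group. Tmem170 stood at 34.0 and 31.99 CPM in the triple knockdown against 5.34 and 6.385 CPM in shControl, while the groups lay close together or overlapped for Cfdp1, Tmem231, Gabarapl2 and Adat1.

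The paralog did not share the rise; its levels lay in the opposite direction and did not pass the test. Tmem170b (ENSMUSG00000087370.3, chr13:41605907-41641355, plus strand) measured 6.45 and 8.47 CPM in the triple knockdown, against 9.85 and 11.2 CPM in shControl. Both triple knockdown libraries were below both shControl libraries, an order that 21.7% of all tested genes shared (41.3% in either direction). The means were 7.46 ± 1.43 CPM in the triple knockdown and 10.5 ± 0.952 CPM in shControl (SD, n = 2 each), and the log2 fold change was -0.50 (SE 0.20), with an edgeR quasi-likelihood p of 0.015 that became 0.251 after Benjamini-Hochberg adjustment over all tested genes. The interval of the fit, not adjusted for the number of genes, ran from 0.538 to 0.934 times the control level. Tmem170 and Tmem170b share none of their 31-base words (0 shared), and 0.134% of those of Tmem170b occur in any other gene.

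Per length of merged exons, the paralogs stood at nearly the same level in shControl and far apart in the triple knockdown. Tmem170 had 8.77 and 8.25 CPM per kb in the triple knockdown, and 1.38 and 1.65 CPM per kb in shControl. Tmem170b had 0.863 and 1.13 CPM per kb in the triple knockdown, and 1.32 and 1.5 CPM per kb in shControl. The shControl ranges of the paralogs overlapped, and their triple knockdown ranges did not. Among the 8 genes Tmem170 ranked 3 in both groups, below Gabarapl2 (127 CPM per kb in the triple knockdown, 140 in shControl) and Cfdp1 (114 and 115). Below the paralogs came Bcar1, Adat1 and Tmem231 at 0.453 to 1.08 CPM per kb in either group, where in each group the libraries of Adat1 overlapped those of Bcar1. Tmem231 lay below both in the triple knockdown, and in shControl below Bcar1 but overlapping Adat1. In the triple knockdown the libraries of Tmem170b overlapped those of Bcar1 and Adat1 too. Exon length was taken from the annotation, and the transcripts used in these cells can be shorter.

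The neighbours on chromosome 8 did not share the rise. Of the 6 neighbours, 5 were tested and 0 passed the threshold in either direction, where 1.37% of all tested genes passed (0.541% higher and 0.826% lower). Their log2 fold changes ran from -0.55 to 0.12 with a median of -0.13, against -0.01 over all tested genes, and 1 of the 5, Bcar1, had an unadjusted p under 0.05 in edgeR, where 12.0% of all tested genes did. DESeq2 and limma-voom also called 0 of the 5. The upper ends of the 5 intervals of the fit lay between 0.979 and 1.59 times the control level.

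Nearest on the downstream side was Cfdp1 (ENSMUSG00000031954.6, chr8:111768491-111854291, minus strand), whose start is 22.5 kb from that of Tmem170. It encodes a chromatin protein related to yeast Swc5, a subunit of the complex that exchanges the histone variant H2A.Z. Cfdp1 measured 124 and 146 CPM in the triple knockdown, against 140 and 132 CPM in shControl. The libraries of the groups overlapped, and edgeR gave a log2 fold change of -0.01 with an SE of 0.14 (adjusted p = 0.984), with an interval of 0.822 to 1.2 times the control level. With 1759 to 3007 estimated counts per library and none of its 31-base words in another gene, it is among the most precisely measured of the neighbours. Its sign depended on the setting, with log2 fold changes of -0.14 to 0.10 over the alternatives (0.07 with scaling by library size alone).

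Bcar1 (ENSMUSG00000031955.10, chr8:111710474-111743809, minus strand) encodes p130Cas, a scaffold that Src and focal adhesion kinase phosphorylate at sites of cell adhesion. It measured 4.05 and 2.67 CPM in the triple knockdown, against 5.62 and 4.21 CPM in shControl. Both triple knockdown libraries lay below both shControl libraries, an order that 21.7% of all tested genes shared, though 4.05 and 4.21 CPM are close. In the edgeR fit this was a log2 fold change of -0.55 with an SE of 0.26 (adjusted p = 0.373). Leaving out triple knockdown replicate 1 gave -0.89, and leaving out replicate 2 of that group gave -0.29.

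On the upstream side, Chst5 (ENSMUSG00000031952.5, chr8:111889136-111910447, minus strand) encodes a sulfotransferase that adds sulfate to N-acetylglucosamine, known in the mouse from the keratan sulfate of the cornea. It had 0 and 1 estimated count in the triple knockdown and 0 in both shControl libraries. A count of 0 allows up to 3 counts, or 0.16 CPM in triple knockdown replicate 1, and 0.139 and 0.225 CPM in shControl replicates 1 and 2. A difference was not detectable at this depth, and no fold is given. The gene whose 3′ end faces the Tmem170 start was thus at or near 0 in every library.

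Tmem231 (ENSMUSG00000031951.8, chr8:111912011-111933881, minus strand) encodes a membrane protein of the ciliary transition zone, the gate at the base of the cilium. It measured 2.72 and 2.15 CPM in the triple knockdown, against 2.56 and 3.68 CPM in shControl, a log2 fold change of -0.32 with an SE of 0.32 in edgeR (adjusted p = 0.762). The groups overlapped, and with 32.8 to 55.0 estimated counts per library the interval was wide, at 0.515 to 1.24 times the control level. Leaving out shControl replicate 2 brought the log2 fold change to -0.05, and leaving out triple knockdown replicate 2 to -0.17. With replicate 1 of shControl left out it stood at -0.59, and with replicate 1 of the triple knockdown left out at -0.51.

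Gabarapl2 (ENSMUSG00000031950.7, chr8:111940703-111953612, plus strand) encodes GATE-16, an Atg8-family protein that is attached to the lipid of autophagosome membranes, and was the most abundant of the 8 genes. It measured 289 and 304 CPM in the triple knockdown, against 320.3 and 330.1 CPM in shControl (edgeR log2 fold change -0.13 with an SE of 0.14, adjusted p = 0.782). Both triple knockdown libraries lay slightly below both shControl libraries, an order that 21.7% of all tested genes shared (41.3% in either direction). The interval was 0.751 to 1.11 times the control level, and 15.3% of its 31-base words occur in another gene, most often in Gm3724.

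Adat1 (ENSMUSG00000031949.17, chr8:111966908-111992302, minus strand) encodes the deaminase that converts adenosine to inosine beside the anticodon of alanine tRNA. It measured 4.85 and 3.06 CPM in the triple knockdown, against 2.88 and 4.66 CPM in shControl (edgeR log2 fold change 0.12 with an SE of 0.28, adjusted p = 0.919). The groups overlapped, and the sign changed with the library left out: it was -0.27 with replicate 1 of the triple knockdown left out and -0.22 with replicate 1 of shControl left out, against 0.40 with replicate 2 of the triple knockdown left out and 0.48 with replicate 2 of shControl left out. It was the highest fold change among the 5 tested neighbours.

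Other genes of the wider region did not pass the test either. Within 500 kb of the Tmem170 start, 21 other genes are annotated, 16 had a row in the table and 10 were tested: Wdr59, Znrf1, Zfp1, Bcar1, Cfdp1, Tmem231, Gabarapl2, Adat1, Kars and Terf2ip. Of these 10, 0 passed the threshold, again beside 1.37% of all tested genes, and DESeq2 and limma-voom called 0. In edgeR 3 of the 10 had an unadjusted p under 0.05, as did 12.0% of all tested genes. These 3, Bcar1, Znrf1 and Terf2ip, all had negative log2 fold changes. Both triple knockdown libraries lay above both shControl libraries for 0 of the 10 and below them for 5, where the shares over all tested genes were 19.6% and 21.7%. The median log2 fold change was -0.17. Within 1 Mb, 20 other genes were tested and 0 passed, with a median of -0.05 and a range from -0.58 for Cntnap4 to 0.62 for Exosc6 (edgeR adjusted p = 0.657). No tested gene other than Tmem170 within 1 Mb passed the threshold in any of the 10 alternative fits.

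The most abundant genes of the 500 kb window that are not among the 8 behaved as follows. Kars, which encodes lysyl-tRNA synthetase, averaged 22.1 CPM in the triple knockdown and 20.8 CPM in shControl (log2 fold change 0.07, edgeR adjusted p = 0.909). Znrf1, a ubiquitin ligase gene, averaged 16.8 CPM in the triple knockdown and 24.0 CPM in shControl (log2 fold change -0.51, adjusted p = 0.0936), but is uncertain, as 32% of its exonic bases overlap Ldhd. Terf2ip, which encodes the telomere protein Rap1, averaged 6.07 CPM in the triple knockdown and 8.83 CPM in shControl (log2 fold change -0.55, adjusted p = 0.205).

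**Figure D2:**
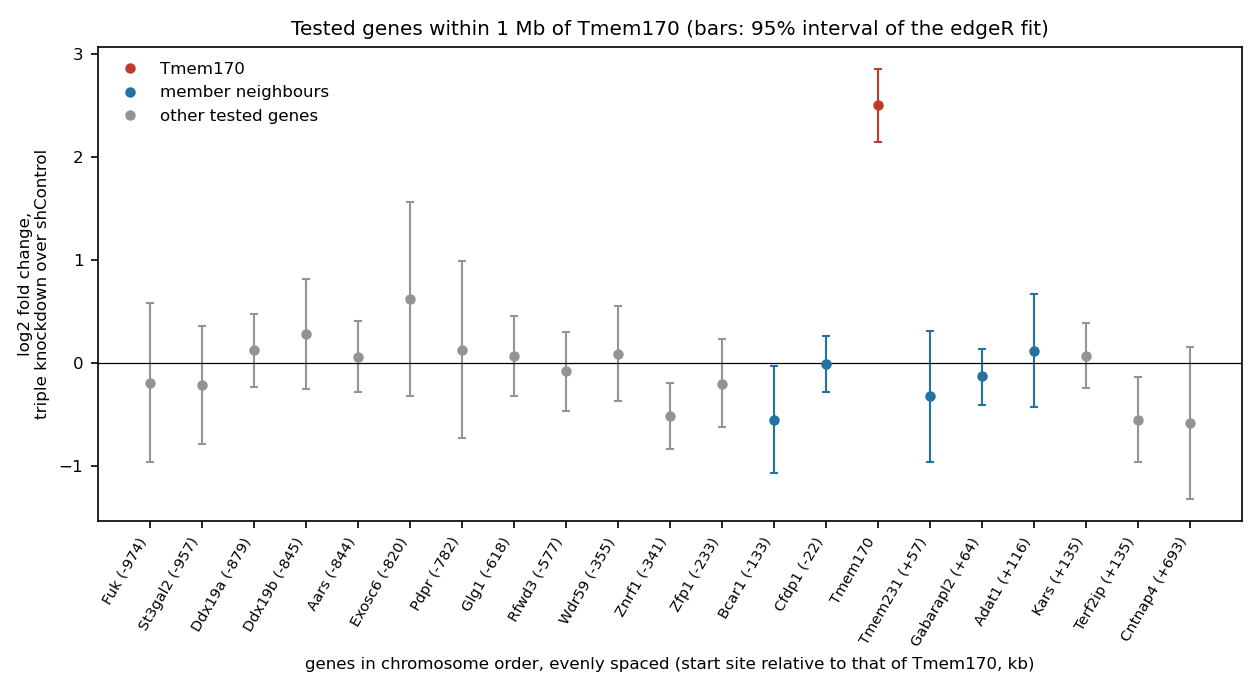
Log2 fold change, triple knockdown over shControl, of the tested genes within 1 Mb of Tmem170 in chromosome order, with the distance of each start site in kb; bars are 95% intervals of the edgeR fit. Tmem170, chosen for its rise, stands at 2.51, and the other 20 genes lie between -0.58 and 0.62.

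Genes that work with the proteins of the 8 genes were examined as 8 lists. Together, without the 8 genes themselves, they held 108 tested genes, of which 0 rose and 1 fell, next to backgrounds of 0.541% and 0.826%. Of the 108, 10 had an unadjusted p under 0.05 in edgeR, as did 12.0% of all tested genes. DESeq2 called 0 of the 108, and limma-voom called 1. Genes named only for an unadjusted p were chosen after their values were seen. The median log2 fold change of the 108 genes was -0.01, the same as over all tested genes.

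For the processes tied to TMEM170A in human cells, ER-shaping genes (reticulons, REEP proteins, atlastins and sheet proteins) had a median log2 fold change of -0.14. Of these 22, 0 were past the threshold and 2 had an unadjusted p under 0.05 in edgeR (Rtn2, below 0, and Lnpk, above 0). Such a p was found for 12.0% of all tested genes. Of the 22, 6 were above 0 and 16 below, where 48.9% of all tested genes were above 0. Both triple knockdown libraries lay below both shControl libraries for 9 of the 22 and above them for 2. The shares over all tested genes were 21.7% and 19.6%. The 2 most abundant genes of the list, given next, were both among those above 0. Sec61b, a subunit of the ER translocon, measured 316 and 303 CPM in the triple knockdown against 257 and 329 CPM in shControl. Arl6ip1, which bends ER tubules, measured 263 and 286 CPM in the triple knockdown against 277 and 209 CPM in shControl. Nuclear pore and nuclear envelope genes had a median of 0.00, with 0 of 29 past the threshold and 2 with an unadjusted p under 0.05, both above 0 (Lmna and Lbr). Tmpo, a lamina-associated protein, measured 71.9 and 83.8 CPM in the triple knockdown against 85.1 and 82.6 CPM in shControl, and Emd, which encodes emerin, 43.1 and 40.3 CPM in the triple knockdown against 46.7 and 38.9 CPM in shControl. For each of these 4 genes the groups overlapped.

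In the list of Cas adaptors and partners of Bcar1, 1 of 11 fell, as did 0.826% of all tested genes, and 10 did not pass. The list median was -0.14. In edgeR 3 of the 11 (Crk, Efs and Bcar1, all below 0) had an unadjusted p under 0.05, as did 12.0% of all tested genes. The gene past the threshold was Crk, an adaptor that binds phosphorylated p130Cas. It measured 18.9 and 22.5 CPM in the triple knockdown against 31.4 and 31.9 CPM in shControl. In edgeR this was a log2 fold change of -0.61 with an SE of 0.15 (adjusted p = 0.0182). The call was lost with scaling by library size alone (adjusted p = 0.33), with DESeq2 (0.113) and without triple knockdown replicate 1 (0.733) or 2 (0.101), and held in the other 6 of 10 alternatives.

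Ciliary transition zone genes, Tmem231 included, had 0 of 17 past the threshold and a median of 0.27. Of the 17, 14 were above 0, as were 48.9% of all tested genes, and 3 had an unadjusted p under 0.05 (Tmem17, Tmem237 and B9d1), as did 12.0% of all tested genes. B9d1 measured 44.8 and 39.5 CPM in the triple knockdown against 33.4 and 34.0 CPM in shControl, and Tmem216 35.7 and 32.4 CPM in the triple knockdown against 28.7 and 27.7 CPM in shControl (edgeR adjusted p = 0.319 and 0.468). The libraries of the groups did not overlap for either, an order that 19.6% of all tested genes shared, and Tmem231 was among the 3 genes of the list below 0. The Atg8 family and its conjugation enzymes had 0 of 14 past the threshold and a median of -0.13, with 1, Atg3, at an unadjusted p under 0.05. Of the 14, 4 were above 0 and 10 below, where 48.9% of all tested genes were above 0. Both triple knockdown libraries lay below both shControl libraries for 6 of the 14 and above them for 0. The shares over all tested genes were 21.7% and 19.6%. Gabarap measured 370 and 382 CPM in the triple knockdown against 433 and 458 CPM in shControl (edgeR adjusted p = 0.51).

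The 3 remaining lists had medians near 0 and 0 genes with an unadjusted p under 0.05. SRCAP complex genes, Cfdp1 included, had 0 of 12 past the threshold and a median of -0.02, with a range from -0.15 to 0.18. H2afz, which encodes the histone variant the complex exchanges, measured 2638 and 2680 CPM in the triple knockdown against 2562 and 2790 CPM in shControl, and H2afv 382 and 384 CPM in the triple knockdown against 362 and 369 CPM in shControl. The sulfotransferases had 0 of 4 past the threshold and ranged from -0.68 (Chst1) to 0.57 (Chst7), with Chst2 at 7.73 and 7.10 CPM in the triple knockdown against 7.11 and 8.19 CPM in shControl, and Chst3 at 3.68 and 4.495 CPM in the triple knockdown against 3.99 and 3.98 CPM in shControl. The adenosine deaminases had 0 of 4 and ranged from -0.34 to 0.31, with Adat2 at 15.8 and 13.6 CPM in the triple knockdown against 12.6 and 11.0 CPM in shControl, and Adar at 3.68 and 4.37 CPM in the triple knockdown against 4.55 and 4.06 CPM in shControl.

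**Figure D3:**
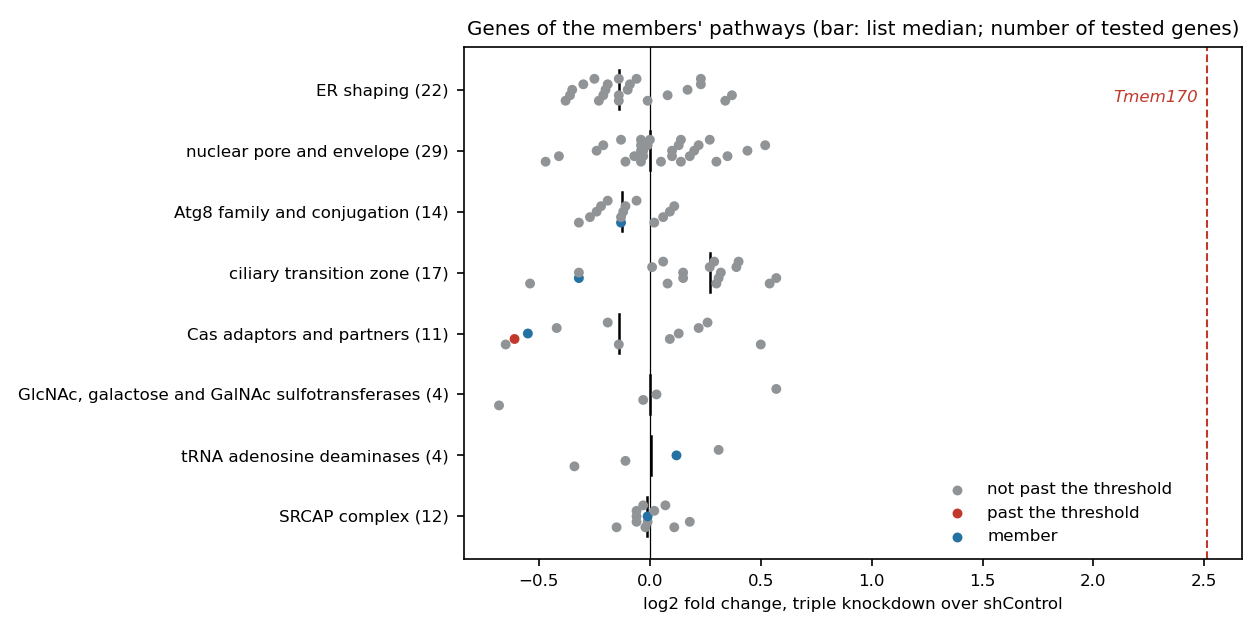
Log2 fold change, triple knockdown over shControl, of each tested gene in the 8 lists, with the list median as a bar and the number of tested genes in brackets. Blue points are members, the red point is Crk, and the dashed line marks Tmem170 at 2.51, beyond every gene of the lists.

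The genes whose pattern over the 4 libraries was nearest to that of Tmem170 lay elsewhere in the genome. Likeness was the Euclidean distance between log2 CPM values centred on each gene's own mean, over the 12649 other genes whose mean level reached 1 CPM, and it is a description of 4 libraries. The 5 nearest were Bst2 (distance 0.245), Mx2 (0.327), Isg15 (0.358), Neu1 (0.411) and Dbx2 (0.448). Because Tmem170 was chosen for its rise, nearness to it largely means a rise of like size, and it is no test of a link. The log2 fold changes of these 5 ran from 2.17 (Neu1) to 2.73 (Mx2). Mx2, Isg15 and Dbx2 averaged 0.374, 0.854 and 0.533 CPM in shControl, and reached a mean of 1 CPM only through the triple knockdown. Bst2, which encodes the virus-tethering protein tetherin and is the only one of the 5 on chromosome 8, starts 40.3 Mb from Tmem170. The interferon-induced Mx2 (a GTPase gene annotated as a polymorphic pseudogene), the ubiquitin-like modifier gene Isg15, Neu1 and the homeobox gene Dbx2 lie on chromosomes 16, 4, 17 and 15. Bst2 measured 13.4 and 13.5 CPM in the triple knockdown against 2.46 and 2.33 CPM in shControl. Neu1, a lysosomal sialidase, measured 34.2 and 26.5 CPM in the triple knockdown against 6.55 and 7.06 CPM in shControl. Of these 5 genes, the interferon-induced Bst2 and Isg15 hold GAAA-NN-GAAA in the windows printed above (2 and 3 overlapping matches), while the windows of Neu1, Dbx2 and Tmem170 hold none. TGCCGC matched in the window of Neu1 (once, 30 to 35 bases after the start) and not in those of Bst2, Isg15 and Dbx2. No match in a window says only that these letters are not there. Whether the matches have a part in any of these rises was not tested.

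**Figure D4:**
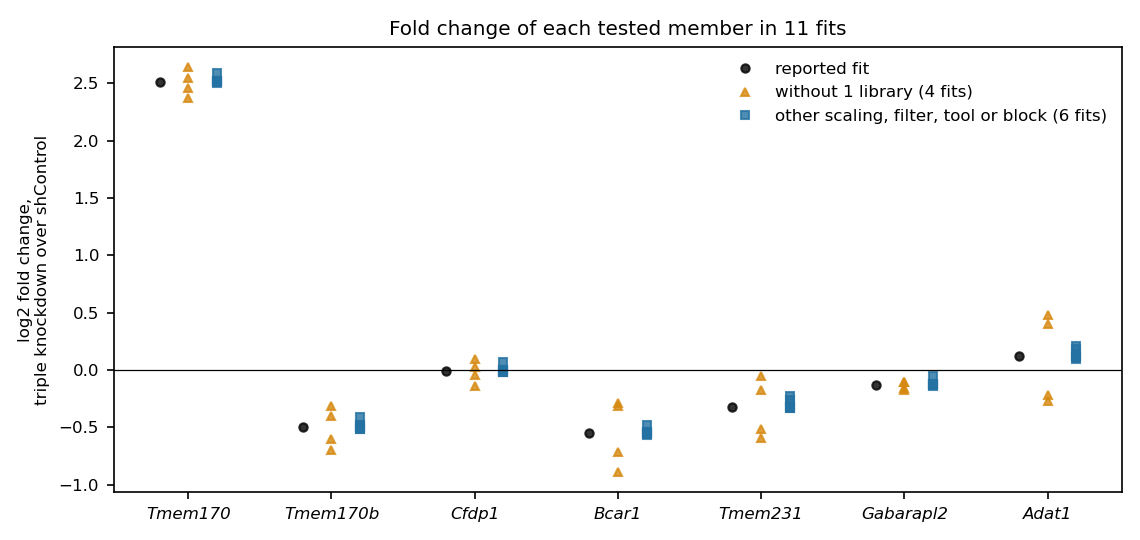
Log2 fold change, triple knockdown over shControl, of each of the 7 tested genes in 11 fits: the reported one, 4 that leave out 1 library each and 6 with another scaling, filter, tool or a replicate block. Tmem170 lies between 2.37 and 2.64 in the alternatives, Tmem170b and Bcar1 stay below 0, and Cfdp1 and Adat1 lie on both sides of 0.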

How the data were processed

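The deposited file is 1 table with 4 columns of estimated counts per gene, which the authors did not normalize; all columns belong to the series' samples. Per the submitters' processing notes, the values come from Salmon, with the builds GRCm38 and mm10. Its version, the gene annotation, how transcripts were summed and the strand setting are not stated by the labels. Between 23.1% and 25.1% of the values per library were not whole, and they were rounded before testing. Of 34866 identifiers, 34652 matched GENCODE M21 (GRCm38) with the version dropped.

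The test was edgeR 4.0.16 in R 4.3.3, with TMM scaling (factors 0.907 to 1.05) and filterByExpr at a minimum count of 10, leaving 14050 genes. A robust quasi-likelihood model was fitted and tested two-sided by F, with Benjamini-Hochberg adjustment over all tested genes and a threshold of 0.05. The SE is the log2 fold change divided by the square root of F, and intervals use the degrees of freedom of the fit. Fold changes are triple knockdown over shControl. The procedure was tested on simulated data. DESeq2 1.42.0, limma-voom (limma 3.58.1), other scalings, no filter, a replicate block and leaving out each library were the alternatives. Shares of counts carry Wilson intervals (scipy 1.17.1). With 2 libraries a group, an exact permutation test reaches at best p = 0.33, and none was run. Shared 31-base words and exonic overlap (bedtools 2.31.1) came from M21, and promoter windows from RefSeq (GRCm38.p6).

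The members and lists were chosen with earlier results of these data known. The genes named by rule were the 8 members, the tested genes within 500 kb (values for the 3 most abundant others), list genes past the threshold or else the 2 most abundant per list, and the 5 genes nearest to Tmem170 in pattern. Further genes were named after their values were seen. They had an unadjusted p under 0.05 in edgeR, stood at the end of a range or were called in an alternative fit.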

Additional observations from a re-analysis of the deposited data

How the results depend on the processing

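Over all tested genes 76 were higher and 116 lower, with 30 and 39 in DESeq2 and 77 and 28 with scaling by library size alone, so the share of higher calls moved from 39.6% to 73.3% with that scaling. Without 1 library the counts ranged from 27 to 280 higher and from 17 to 334 lower; the lowest were without triple knockdown replicate 1 and the highest without shControl replicate 2. The cause was not tested. The log2 fold change of Tmem170 ranged from 2.37 to 2.64 over the 10 alternatives, and that of Tmem170b from -0.70 to -0.31 with an adjusted p of 0.142 to 0.999. None of the tested neighbours, nor another tested gene within 1 Mb, was called in any alternative. The fold change of Cfdp1 turned to 0.07 with scaling by library size alone, and ranged from -0.14 to 0.10 without 1 library (0.03 without shControl replicate 1, 0.10 without triple knockdown replicate 1). That of Adat1 ranged from -0.27 to 0.48 without 1 library (-0.22 without shControl replicate 1, -0.27 without triple knockdown replicate 1). In the functional lists, 0 genes were lower with DESeq2 and 0 with scaling by library size alone. Without 1 library, 0 to 1 were higher and 0 to 2 lower: without shControl replicate 2, Lbr was called higher and Efs lower beside Crk. The labels number the replicates alike in both groups without saying that numbers pair them, and the deviations of the replicate 1 libraries from their group means correlated at -0.0324 across 14050 genes. With a replicate block, 75 genes were higher and 97 lower, and no call among the members, the region or the lists changed. Depth limits Chst5 most, with 1 estimated count in all, and leaves wide intervals for Tmem231 and Adat1.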
